A study of Mus musculus with 11 samples.

Results

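The 9 genes described here encode transcription factors that define the hepatocyte: Hnf4a, Foxa1, Foxa2, Foxa3, Cebpa, Nr1h4, Nr1i3, Onecut1 and Prox1. They were taken by symbol from the deposited gene table, where all 9 were found among 43346 genes, and all 9 stayed among the 17610 genes that passed the filter on low counts. The RNA came from livers of FVB/NJ mice, an inbred strain, in which hepatocellular carcinoma had been induced by expressing β-catenin, the effector of canonical Wnt signalling, together with the growth factor receptor MET. Every library carries the treatment label anti-PD-1, an antibody against an inhibitory receptor of T cells. By treatment response, 6 libraries are labelled responder, 4 non-responder and 1 non treatment. This last one has a response label at odds with its treatment label, and it is called the no-treatment library below after the former. The disease induction is shared by all 3 groups, and the labels give no age, no promoter for the MET and β-catenin constructs and no share of tumour in the sampled liver. The labels also do not tie libraries to individual mice, so a p-value here speaks only of the spread between libraries, part of which may be technical.

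Hepatocyte identity is held by a small network of factors that bind the promoters and enhancers of liver genes and of one another. HNF4α, a nuclear receptor, is its most widely acting member, the FOXA proteins open chromatin at liver enhancers, C/EBPα drives genes of metabolism and of the non-dividing state, and HNF6 (encoded by Onecut1) and PROX1 act early in liver development as well as in the adult. FXR (Nr1h4) senses bile acids, and CAR (Nr1i3) senses foreign compounds and controls drug-metabolising enzymes. Loss of such factors is a known feature of poorly differentiated liver cancer.

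In responder livers, 2 of the 9 genes, Cebpa and Nr1h4, were called higher than in non-responder livers, beside 4.11% of all tested genes. The other 7 did not pass the test. Both calls were fragile: over 10 fits that each left out 1 library, Cebpa was called in 2 and Nr1h4 in 3. Hnf4a differed little in total level, whereas the origin of its transcripts did differ: the share of first-exon reads at its upstream promoter, P2, averaged 2.68% ± 1.89 over responders (SD, n = 6) but 10.7% ± 4.04 over non-responders (SD, n = 4). In Nr1h4, too, the share of reads at the upstream start was lower in responders. Among the 3 Foxa genes, Foxa3 took a smaller part and Foxa1 and Foxa2 a larger part of the family's transcripts in responders. These share calls were lost in most fits that left out 1 library, and no Foxa gene passed by its own level.

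The libraries held between 17876515 and 49884800 gene counts. In non-responder replicate 1, reads lay toward the 3′ ends of genes: 87.4% of the Hnf4a reads counted over the exons of 1 transcript fell in the last exon, against 64.1% to 68.1% in the other 10 libraries. Results that involve this library are given with and without it where it matters. Hepatocyte markers summed to between 83376 and 95867 CPM (counts scaled to library size by the TMM method) in responders and between 112855 and 145585 CPM in non-responders, and all 11 were detected. The sum is carried by Alb, at 56689 CPM on average in responders and 85756 CPM in non-responders, Ahsg and Apoa1. It runs against most of the list, in which 8 of 11 markers had a positive log2 fold change (median 0.17). Of the 11, Tat and Cps1 were called higher and Ahsg and Apoa1 lower in responders. The 11 cholangiocyte markers, which matter because biliary cells also express Onecut1, Foxa1 and Foxa2, summed to between 39.5 and 54.3 CPM in responders and between 50.6 and 91.3 CPM in non-responders. None of the 11 was at 0 in all libraries, and their part in the results was not tested. No cholangiocyte marker of 9 tested was called by edgeR or limma-voom, 2 were under an unadjusted p of 0.05, DESeq2 called 1 lower, and limma-voom with quality weights called 2 higher. Of 8 stellate cell markers, edgeR called Hgf and Ecm1 higher and none lower, and 5 had a positive log2 fold change. Col1a1 (-2.21), Reln (-0.87) and Des (-0.20) went the other way and were not called. DESeq2 and quality weights each called 3 stellate cell markers higher and 1 lower. No marker in the lists of sinusoidal endothelium, Kupffer cells, T cells or neutrophils was called by edgeR, DESeq2 or limma-voom without weights. Lyve1, also made by sinusoidal endothelium, was listed with the lymphatic markers and was called lower in responders (log2 fold change -1.44, edgeR adjusted p = 0.0149). Over all tested genes edgeR called 4.11% higher and 5.82% lower, and DESeq2 and quality weights called more both ways. At an unadjusted p under 0.05 stood 8 of the 11 hepatocyte markers, 6 of the 8 stellate cell markers, 2 of the 7 sinusoidal markers and none of the Kupffer cell, T cell or neutrophil markers, and quality weights called 1 sinusoidal marker lower. The share of all tested genes at an unadjusted p under 0.05 was not counted. It is larger than the cut itself, because the 4.11% called higher and 5.82% called lower by edgeR all lie under it. Counts at this cut, here and in the lists below, thus have no measured background, and no excess is read from them. In bulk liver, fewer cells that express a gene and less of its RNA per cell cannot be told apart.

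Read per kilobase of the listed gene length and averaged over all 11 libraries, the levels formed a steep order. Cebpa stood at 190.2 ± 88.6 CPM per kb (SD over 11 libraries) and Hnf4a at 134 ± 8.47 CPM per kb. Cebpa was above Hnf4a in 9 of 11 libraries, and the pair stood above 98.6% and 98.02% of all tested genes. Nr1h4 at 37.8 ± 6.41, Nr1i3 at 35.5 ± 9.96, Foxa3 at 31.0 ± 7.73 and Onecut1 at 24.5 ± 14.1 CPM per kb followed. These neighbours lay within their spread of each other, the upper gene of each pair being higher in 9, 8 and 7 of 11 libraries. Foxa2 at 13.6 ± 3.81, Prox1 at 13.1 ± 3.37 and Foxa1 at 9.73 ± 2.86 CPM per kb were lowest, and Foxa2 exceeded Prox1 in 6 and Prox1 exceeded Foxa1 in 8 of 11 libraries. The order differed by label. Among non-responders the mean of Hnf4a (138 CPM per kb) was above that of Cebpa (120.3), those of Nr1i3 (37.9) and Foxa3 (37.7) were above that of Nr1h4 (30.8), and Onecut1 (13.2) stood near Prox1 (12.7). The values of Nr1i3 and Onecut1 include reads of overlapping genes, as described with those genes.

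**Figure D1:**
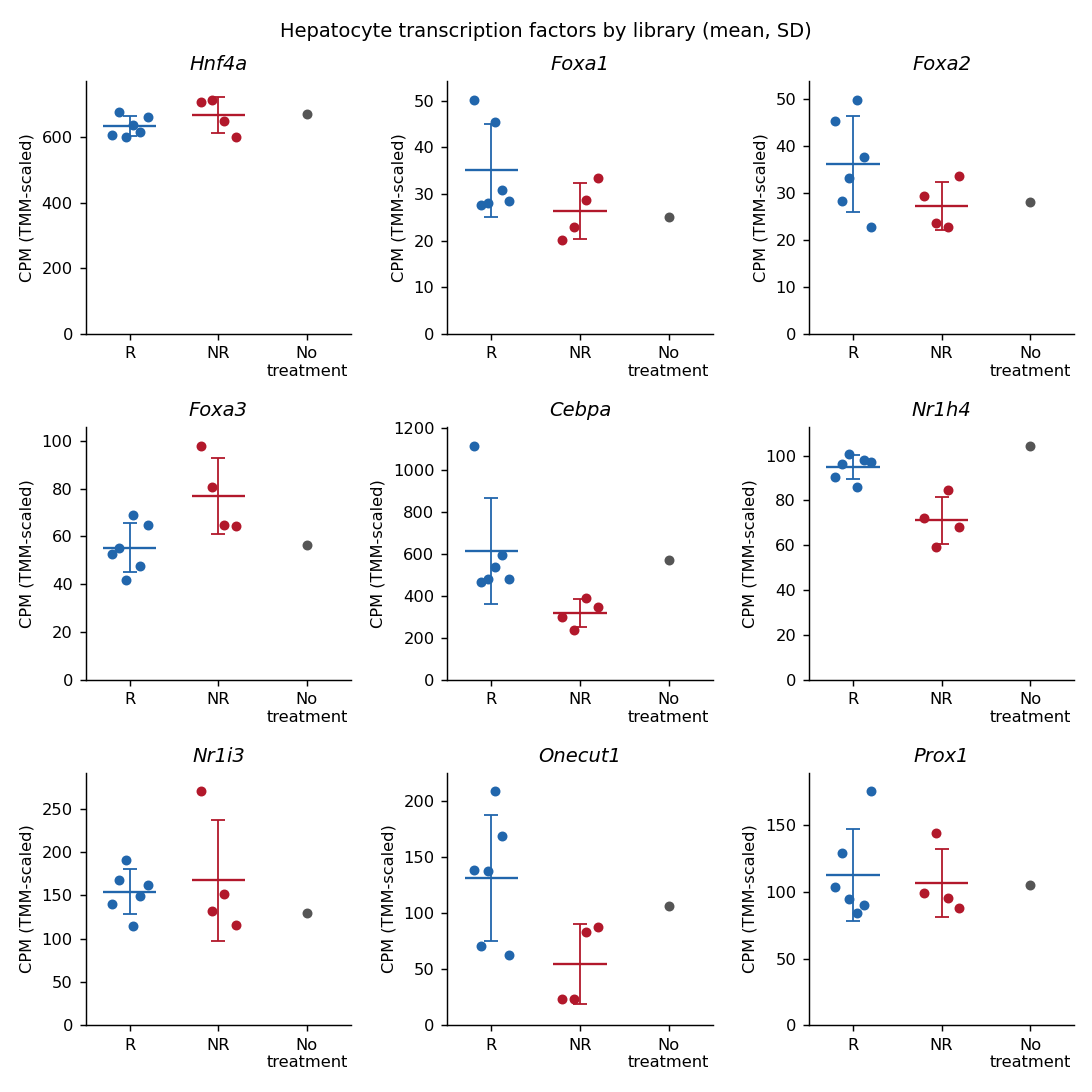
Level of each of the 9 transcription factor genes in CPM (TMM-scaled, linear axes from 0) in the 6 responder (R), 4 non-responder (NR) and 1 no-treatment libraries. Points are libraries, lines and bars are the mean and SD. The groups do not overlap for Cebpa and Nr1h4, and Cebpa in responder replicate 1 (1116 CPM) stands far above the other responders.

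Hnf4a (ENSMUSG00000017950, mm10 chromosome 2, 163506808 to 163572910, plus strand) is transcribed from a pair of promoters. P1, the downstream promoter, makes the transcripts typical of adult liver, and P2, the upstream promoter, makes transcripts with another first exon that are known from fetal liver, gut and pancreas. The 250 bases before each RefSeq start (build GRCm38.p6) are shown because the use of these starts is what differed. Capitals mark a match to the HNF6 motif ATTGATT in P2, read on the strand opposite to the printed run, and the P1 window held none of the motifs searched.
Hnf4a P2, chr2:163506607-163506856, plus strand: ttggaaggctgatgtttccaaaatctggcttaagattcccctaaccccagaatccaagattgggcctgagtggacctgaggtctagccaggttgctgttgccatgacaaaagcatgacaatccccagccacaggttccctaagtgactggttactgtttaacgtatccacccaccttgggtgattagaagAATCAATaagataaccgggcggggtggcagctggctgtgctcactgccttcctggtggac
Hnf4a P1, chr2:163546905-163547154, plus strand: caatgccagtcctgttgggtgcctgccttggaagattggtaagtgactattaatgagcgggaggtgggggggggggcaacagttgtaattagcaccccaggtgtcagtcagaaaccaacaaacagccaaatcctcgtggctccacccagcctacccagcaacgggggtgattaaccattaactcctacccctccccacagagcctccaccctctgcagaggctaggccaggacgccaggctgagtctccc
Of 32851 such windows of mouse promoters, 2.615% held ATTGATT on either strand. The other motifs searched on both strands, TATAAA (the TATA box), TGTTTAC (FOXA), TTGCGCAA (C/EBP) and AGGTCA (a nuclear receptor core site), had no match in the P2 window. No motif overlapped another in the windows of the 9 genes. A match is a run of letters and not a shown binding site.

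The total level of Hnf4a was among the steadiest in the data. It stood at 601, 626 and 677 CPM (lowest, median and highest) in the 6 responders, at 707, 713, 648 and 599 CPM in non-responder replicates 1 to 4 and at 669 CPM in the no-treatment library. The groups overlapped, and the highest library was 1.19 times the lowest. The SD of log2 CPM over the 11 libraries was 0.09, and only 0.806% of tested genes had a smaller one. The log2 fold change of responders over non-responders was -0.08 ± 0.12 (SE, edgeR adjusted p = 0.719).

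Reads at the first exon of P2 (chromosome 2, 163506808 to 163506987, 180 bases) were few and those at the first exon of P1 (163547187 to 163547419, 233 bases) many. In responder replicates 1 to 6, 4, 4, 3, 7, 14 and 21 reads fell in the P2 exon, beside 346, 467, 562, 247, 459 and 467 in the P1 exon. In non-responder replicates 1 to 4 the P2 exon held 18, 51, 38 and 31 reads beside 120, 535, 587 and 482 in the P1 exon. With reads divided by exon length, P2 made up between 0.686% (95% Wilson interval 0.234% to 1.996%) and 5.50% (3.64% to 8.24%) of the first-exon signal in responders. In non-responders the share was 16.3% (10.6% to 24.1%), 10.98% (8.48% to 14.1%), 7.73% (5.70% to 10.4%) and 7.69% (5.48% to 10.7%) in replicates 1 to 4. All 4 non-responders stood above all 6 responders. The no-treatment library, at 2.87% (1.77% to 4.60%), lay within the responders' range. Such intervals cover only the error of counting, because the sources name no molecular identifiers.

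The difference in the P2 share, responder minus non-responder, was -7.98 percentage points (two-sided exact permutation test, p = 0.00476, the smallest that 6 against 4 libraries can give, adjusted p = 0.00952 over the 2 first-exon shares tested). Without non-responder replicate 1, whose reads lie toward the 3′ end, it was -6.12 points (exact permutation test, adjusted p = 0.0238). It passed the threshold with each of the 10 libraries left out in turn. P1 stayed the main start in all 11 libraries.

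Another listed start inside Hnf4a (chromosome 2, 163550083 to 163550242), added after seeing the data as a companion to P2, did not separate the groups in this way. Its CPM (here reads over the library's gene counts, not TMM-scaled) ran from 0.426 to 0.895 in responders and were 2.15, 0.756, 0.851 and 0.508 in non-responder replicates 1 to 4, so the groups overlapped, whereas those of the P2 exon ran from 0.0744 to 0.518 and from 0.705 to 1.38. The P2 exon lies within the span of Hnf4aos (163493807 to 163541720), an antisense RNA on the minus strand, and shares no exonic base with it. Hnf4aos was at 5.55 ± 1.33 CPM (SD, n = 6) among responders and 1.75 ± 0.56 CPM (SD, n = 4) among non-responders, which is 1.67 ± 0.27 as a log2 fold change (SE; adjusted p = 0.0149, edgeR). The antisense RNA was thus higher where the P2 exon held fewer reads. The sources used here do not say whether counting used strand.

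The fetal liver gene Afp grouped the libraries partly in another way. It stood at 121.6 and 99.8 CPM in responder replicates 4 and 6, at 1.38 to 2.28 CPM in the other 4 responders, at 116 to 381 CPM in non-responders and at 1.70 CPM in the no-treatment library. Responder replicates 4 and 6 had P2 shares of 3.54% and 5.50%. These lie under the lowest non-responder, and responder replicate 5, with 2.13 CPM of Afp, had a P2 share of 3.80%. In responder replicates 1 to 3, also low in Afp, it was 1.47%, 1.10% and 0.686%, and in the no-treatment library 2.87%. Apart from responder replicate 5, every library with high Afp thus had a larger P2 share than every library with low Afp. Whether the P2 share moves with Afp or with the label was not tested.

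**Figure D2:**
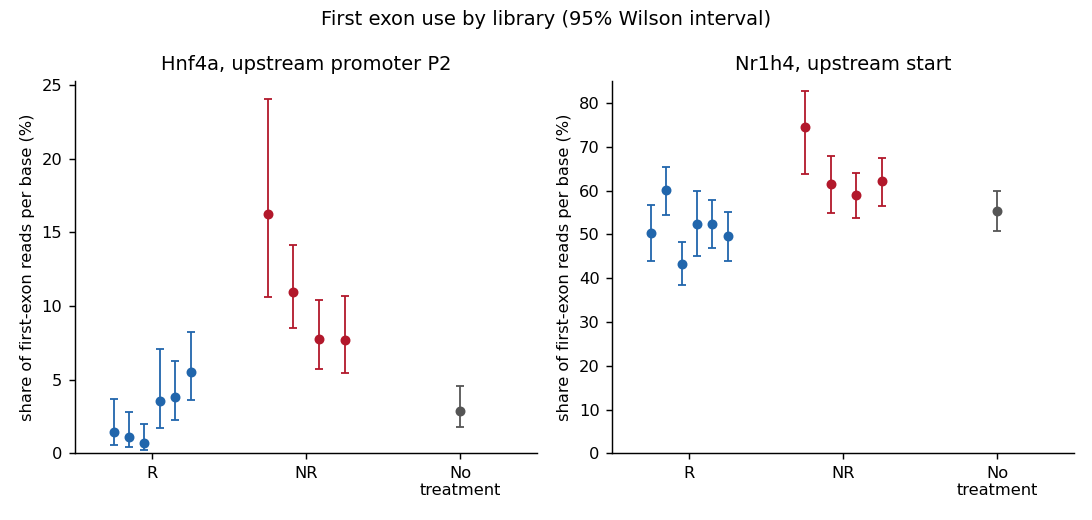
Share of reads per base at the upstream first exon, in percent of the 2 first exons compared, for Hnf4a (left, P2 against P1) and Nr1h4 (right), by library. Points are libraries and bars are 95% Wilson intervals for counting error; R, responder, NR, non-responder. For Hnf4a the highest responder (5.50%) lies below the lowest non-responder (7.69%), and for Nr1h4 the ranges meet near 60%.

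Nr1h4 (ENSMUSG00000047638, chromosome 10, 89454234 to 89533585, minus strand) encodes FXR, the bile acid receptor, whose upstream and downstream starts yield proteins that differ at their amino terminus. Responders stood at 86.2, 96.8 and 100.8 CPM (lowest, median, highest), non-responder replicates 1 to 4 at 72.2, 59.0, 84.6 and 68.3 CPM and the no-treatment library at 104 CPM. Every responder lay above every non-responder, although responder replicate 4 and non-responder replicate 3 were close. Responders were higher by 0.42 ± 0.11 on the log2 scale (SE; adjusted p = 0.0392, edgeR). The call was lost without responder replicates 1, 2, 3, 5 and 6 in turn (adjusted p = 0.0682, 0.0820, 0.0739, 0.0825 and 0.0600, edgeR) and without replicates 2 and 4 of the non-responders (0.112 and 0.0777). The log2 fold change ran from 0.35 to 0.51 over the 10 fits that left out 1 library.

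The upstream first exon of Nr1h4 (89533403 to 89533585, 183 bases) and the downstream one (89506508 to 89506658, 151 bases) both carried many reads. The upstream share per base was 43.3%, 51.4% and 60.05% (lowest, median, highest) in responders and 74.4%, 61.6%, 59.0% and 62.2% in non-responder replicates 1 to 4. It was 55.4% in the no-treatment library. Only responder replicate 2, at 60.05%, reached into the non-responders' range. The difference was -12.9 percentage points (two-sided exact permutation test, p = 0.00952, adjusted p = 0.00952), -9.55 points without non-responder replicate 1 (exact permutation test, adjusted p = 0.0357), and it passed with each library left out in turn. The 250 bases before the downstream start, whose share was higher in responders, are shown. The promoters used here list no upstream start of Nr1h4, so only this window was searched. Capitals mark AGGTCA, on the strand opposite to the printed run, which 14.02% of all promoter windows held on either strand.
Nr1h4 downstream start, chr10:89506659-89506908, minus strand: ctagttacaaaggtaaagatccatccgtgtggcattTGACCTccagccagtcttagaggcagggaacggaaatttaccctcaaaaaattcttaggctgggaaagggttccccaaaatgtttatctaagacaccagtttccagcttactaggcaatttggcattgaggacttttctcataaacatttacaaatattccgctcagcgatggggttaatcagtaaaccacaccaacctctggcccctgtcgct

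Cebpa (ENSMUSG00000034957, chromosome 7, 35119293 to 35121926, plus strand) is a gene of a single exon that encodes C/EBPα, a leucine zipper factor of gluconeogenesis, urea synthesis and cell cycle exit. The bases before its start are shown because it had the largest called difference among the 9 genes. Capitals mark TATAAA, found in 12.4% of all windows.
Cebpa, chr7:35119043-35119292, plus strand: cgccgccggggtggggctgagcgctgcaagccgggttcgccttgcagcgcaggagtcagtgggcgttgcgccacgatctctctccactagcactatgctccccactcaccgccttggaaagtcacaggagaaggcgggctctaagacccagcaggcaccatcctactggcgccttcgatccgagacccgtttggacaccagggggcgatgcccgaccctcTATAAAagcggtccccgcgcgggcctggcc
The 6 responders stood at 464, 509 and 1116 CPM (lowest, median, highest), non-responder replicates 1 to 4 at 298, 236, 390 and 344 CPM and the no-treatment library at 573 CPM. The groups did not overlap, and the top value was that of responder replicate 1, with the next responder at 594 CPM. Responders were higher by 0.95 ± 0.27 on the log2 scale (SE; adjusted p = 0.0470, edgeR), close to the threshold. Without responder replicate 1 it was 0.70 (adjusted p = 0.0535, edgeR). The call was also lost without responder replicates 2, 3, 4 and 5 in turn (adjusted p = 0.0711, 0.0597, 0.0544 and 0.0853, edgeR) and without replicates 1, 2 and 4 of the non-responders (0.0829, 0.132 and 0.0704), with log2 fold changes from 0.70 to 1.07 over all 10 such fits. Cebpg, the neighbouring gene of the same family, was at 74.6 ± 6.95 CPM among responders (SD, n = 6) and 91.9 ± 6.33 CPM among non-responders (SD, n = 4; edgeR adjusted p = 0.0796).

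The 2 genes called higher out of 9 stand beside 4.11% of all 17610 tested genes called higher. None of the 9 was called lower by edgeR, beside 5.82% of all genes, nor by DESeq2 or limma-voom, and 1 of them, Foxa3, was lower at an unadjusted p under 0.05. The groups did not overlap with responders on top for 2 of 9 genes, Cebpa and Nr1h4, beside 5.6% of all genes, and for none with responders below, beside 5.66%. With a covariate in the model, either the number in the sample title or an index of read density over exon 12 of Ctnnb1 and exon 17 of Met, neither gene was called. That index, on a log2 scale, was 0.36 to 0.59 in 4 responders, 1.37 and 1.57 in responder replicates 4 and 6, and 1.52 to 2.54 in non-responders, so it largely moves with the label, and its part in the result was not tested. Ctnnb1, the β-catenin gene, was at 332 ± 38.6 CPM (SD, n = 6) in responders against 504 ± 132 CPM (SD, n = 4) in non-responders.

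**Figure D3:**
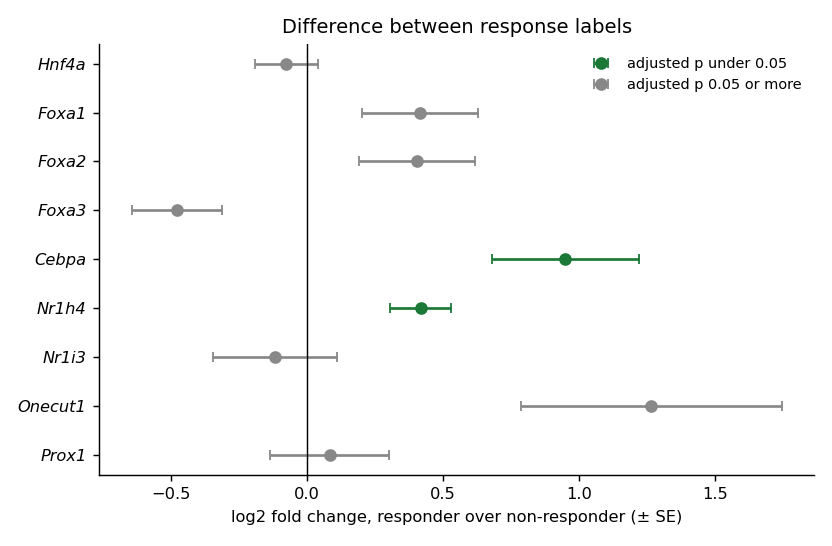
Log2 fold change of responders over non-responders for each gene, with its SE (bars), from edgeR's quasi-likelihood fit on 6 and 4 libraries. Cebpa at 0.95 and Nr1h4 at 0.42 pass the threshold; Onecut1 at 1.27 has a larger difference and a larger SE, 0.48.

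The FOXA genes encode forkhead pioneer factors. Foxa1 (ENSMUSG00000035451, chromosome 12, 57540631 to 57546121) and Foxa2 (ENSMUSG00000037025, chromosome 2, 148042877 to 148046969) act together in liver specification, and Foxa3 (ENSMUSG00000040891, chromosome 7, 19013282 to 19023538) is the most abundant of the 3 in adult liver. Foxa1 stood at 27.6, 29.7 and 50.2 CPM (lowest, median, highest) in responders, at 20.0, 23.0, 28.7 and 33.5 CPM in non-responder replicates 1 to 4 and at 25.1 CPM in the no-treatment library. Responder replicates 1 and 4 were high, at 50.2 and 45.4 CPM, and the groups overlapped. Its log2 fold change was 0.41 ± 0.21 (SE, edgeR adjusted p = 0.236).

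Foxa2 stood at 22.7, 35.4 and 49.9 CPM (lowest, median, highest) in responders, at 29.3, 23.6, 22.7 and 33.6 CPM in non-responder replicates 1 to 4 and at 28.1 CPM in the no-treatment library. The groups overlapped, with responder replicates 1 and 4 again on top. Its log2 fold change was 0.41 ± 0.21 (SE, edgeR adjusted p = 0.247). Foxa3 stood at 41.9, 53.8 and 69.2 CPM (lowest, median, highest) in responders, at 98.1, 80.6, 64.8 and 64.3 CPM in non-responder replicates 1 to 4 and at 56.3 CPM in the no-treatment library. Non-responder replicates 1 and 2 were above every responder, and replicates 3 and 4 lay within the responders' range. Its log2 fold change was -0.48 ± 0.17 (SE, edgeR adjusted p = 0.0857).

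As shares of their summed level per kilobase, the 3 paralogues differed between the labels. Foxa3 made up 51.1% ± 7.54 over responders (SD, n = 6) and 65.3% ± 7.18 over non-responders (SD, n = 4). Foxa1 made up 20.4% ± 2.94 and 14.7% ± 4.39, and Foxa2 28.5% ± 5.39 and 20.1% ± 3.49. The no-treatment library held 58.3% Foxa3, 16.6% Foxa1 and 25.035% Foxa2, within the responders' range for Foxa2 and Foxa3 and under it for Foxa1. All 3 shares also lay within the non-responders' range. The shares sum to 100%, so the 3 tests are not independent. In two-sided exact permutation tests the differences were -14.1 percentage points for Foxa3 (p = 0.0286), 5.76 for Foxa1 (p = 0.0286) and 8.39 for Foxa2 (p = 0.0381), each with adjusted p = 0.0381. The calls of all 3 were lost without responder replicates 1, 3, 4 and 5 in turn (exact permutation, adjusted p = 0.0635, 0.0635, 0.0556 and 0.0635) and without non-responder replicates 1, 2 and 3 (0.107 and 0.107 for the first pair, and up to 0.0833 for the third).

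**Figure D4:**
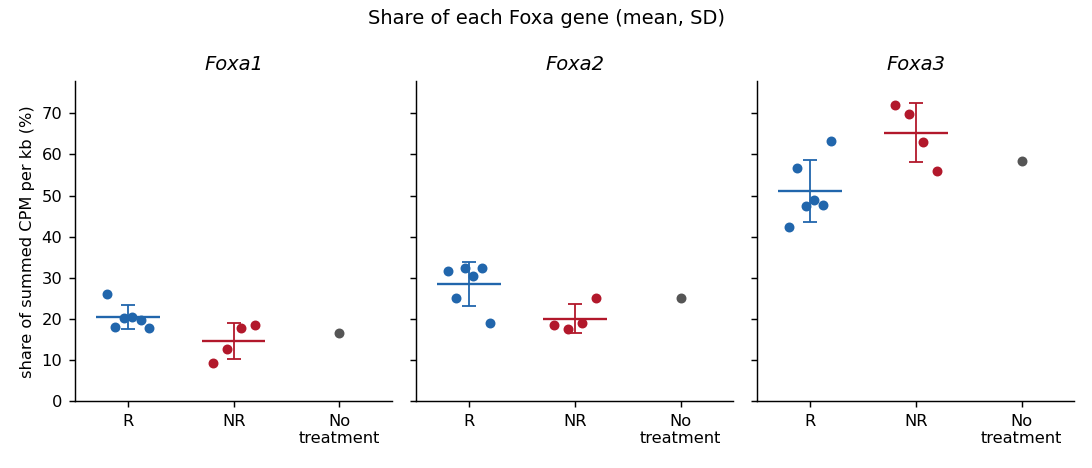
Share of each Foxa gene in the summed CPM per kilobase of Foxa1, Foxa2 and Foxa3, in percent, by library (points), with mean and SD. R, responder; NR, non-responder. Foxa3 is the largest share in all libraries and averages 51.1% in responders and 65.3% in non-responders.

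The table of promoters holds 3 starts for Foxa2. The most distal is shown because it holds the HNF6 motif ATTGATT, as the Hnf4a P2 window and 2.615% of all windows do. The most proximal window held TATAAA, found in 12.4% of all windows, and the middle window held none of the motifs searched. HNF6 is encoded by Onecut1, the most variable of the 9 genes. Whether HNF6 acts at these starts was not tested.
Foxa2 distal start, chr2:148046970-148047219, minus strand: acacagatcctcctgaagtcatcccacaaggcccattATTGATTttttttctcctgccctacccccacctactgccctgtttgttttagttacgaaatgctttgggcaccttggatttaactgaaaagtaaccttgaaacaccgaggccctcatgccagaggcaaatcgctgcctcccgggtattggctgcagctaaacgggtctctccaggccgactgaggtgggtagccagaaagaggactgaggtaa
Next to Foxa2 lies the long non-coding RNA 9030622O22Rik (chromosome 2, 147944740 to 148040203), also known as Falcor. It was at 25.9 ± 5.84 CPM among responders (SD, n = 6) and 11.98 ± 3.11 CPM among non-responders (SD, n = 4), which is 1.11 ± 0.21 as a log2 fold change (SE; adjusted p = 0.0173, edgeR), while Foxa2 itself did not pass. The Foxa1 window held the FOXA motif TGTTTAC, present in 3.17% of all windows.

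Onecut1 (ENSMUSG00000043013, chromosome 9, 74861921 to 74891781, plus strand) encodes HNF6, a cut-homeodomain factor of hepatocytes and bile ducts. It varied most, with an SD of log2 CPM of 1.04 over the 11 libraries, above that of 93.5% of tested genes. Responders stood at 62.9, 138 and 208 CPM (lowest, median, highest), non-responder replicates 1 to 4 at 23.4, 23.9, 83.1 and 87.5 CPM and the no-treatment library at 107 CPM. Non-responder replicates 1 and 2 lay far below every other library, and responder replicates 2 and 6, at 70.5 and 62.9 CPM, lay below non-responder replicates 3 and 4. The log2 fold change was 1.27 ± 0.48 (SE, edgeR adjusted p = 0.116), and DESeq2 gave the same 1.27 with an adjusted p of 0.0282. Of its 4113 exonic bases, 52.8% are shared with Gm20649, a non-coding RNA on the same strand, so the gene count is uncertain. In the 1 exon shared with no other gene, of 1481 bases, responders ran from 16.3 to 68.5 CPM and non-responder replicates 1 to 4 stood at 6.90, 6.69, 21.0 and 24.5 CPM, the same 2 libraries being lowest.

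Nr1i3 (ENSMUSG00000005677, chromosome 1, 171213970 to 171220701, plus strand) encodes CAR, the xenobiotic receptor. Responders stood at 115, 155 and 191 CPM (lowest, median, highest), non-responder replicates 1 to 4 at 270.04, 131, 152 and 116 CPM and the no-treatment library at 129.8 CPM. Non-responder replicate 1 was far above the rest and the groups overlapped. The log2 fold change was -0.12 ± 0.23 (SE; adjusted p = 0.782, edgeR), but leaving out non-responder replicate 1 gave 0.21 (edgeR adjusted p = 0.390). Tomm40l, a gene of mitochondrial import on the opposite strand, shares 74.9% of the 4414 exonic bases of Nr1i3, and the gene count is uncertain for that reason. In the 3 exons of Nr1i3 shared with no other gene, 478 bases in all, non-responder replicate 1 was at 35.1 CPM, within the 24.2 to 40.7 CPM of responders, and the log2 fold change was 0.20.

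Prox1 (ENSMUSG00000010175, chromosome 1, 190118035 to 190170714, minus strand) encodes a homeodomain factor of hepatocytes that also marks lymphatic endothelium. Responders stood at 84.2, 99.1 and 175 CPM (lowest, median, highest), non-responder replicates 1 to 4 at 99.0, 144, 95.3 and 88.0 CPM and the no-treatment library at 105 CPM. Responder replicate 6 and non-responder replicate 2 were highest, and the groups overlapped. The log2 fold change was 0.08 ± 0.22 (SE, edgeR adjusted p = 0.842), and it was -0.08 without responder replicate 6. The 5 lymphatic markers summed to between 28.3 and 58.0 CPM in responders and between 21.7 and 49.7 CPM in non-responders. Only 2 of the 5 were tested, and they went opposite ways. Lyve1, also made by sinusoidal endothelium, fell in responders (log2 fold change -1.44 ± 0.24, SE, edgeR adjusted p = 0.0149). Flt4 stood at 0.40 ± 0.25 and did not pass (SE, edgeR adjusted p = 0.332). Prox1os, the antisense RNA that shares 1.59% of the exonic bases of Prox1, was at 4.76 ± 0.73 and 3.87 ± 0.65 CPM (SD, n = 6 and n = 4; edgeR adjusted p = 0.290).

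In the no-treatment library, Nr1h4 stood above all 10 libraries labelled responder or non-responder, and the other 8 genes lay inside their range. That is 1 of 9 above, beside 8.17% of all tested genes, and none below, beside 7.98%. With 1 library there was no test. For Cebpa, Nr1h4 and the Hnf4a P2 share it stood within or above the responders' range. Its Foxa shares all lay within the non-responders' range, and those of Foxa2 and Foxa3 within the responders' range as well.

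Across the 11 libraries the 9 genes did not move as a block. Of 36 pairs, 17 had a positive and 19 a negative Pearson r of log2 CPM, from -0.81 for Hnf4a with Onecut1 to 0.77 for Foxa1 with Foxa2. Cebpa and Onecut1 had r = 0.75 and Foxa3 and Onecut1 -0.75. These are descriptions over libraries that share the group labels and a common scaling. The gene most like Hnf4a was Frat2 (r = 0.91), that most like Foxa1 was Dnajc22 (0.93), and that most like Foxa2 was Ikzf4 (0.89). Foxa3 was most like Snhg1 (0.98), Cebpa like Ptch1 (0.95), Nr1h4 like Akr1c19 (0.96), Onecut1 like Serpina4-ps1 (0.95) and Prox1 like Rab30 (0.82). For Nr1i3 it was Tomm40l (0.99), with which it shares exons. Each was picked from all tested genes over only 11 libraries, a search in which high values are found for any gene.

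Most other transcription factors of the liver did not pass. Of 35, edgeR called 3 higher and 1 lower in responders, beside 4.11% and 5.82% of all genes, with a median log2 fold change of 0.14 beside -0.02 over all tested genes. Onecut2, the paralogue of Onecut1, rose to 178 ± 34.9 CPM among responders (SD, n = 6), beside 94.8 ± 8.76 CPM among non-responders (SD, n = 4), which is 0.91 ± 0.16 as a log2 fold change (SE; adjusted p = 0.0150, edgeR). Nr2f2, which encodes the orphan receptor COUP-TFII, rose by 0.79 on the log2 scale (edgeR adjusted p = 0.0422) and Zbtb20, a repressor of Afp, by 0.89 (edgeR adjusted p = 0.0497). Hnf4g, the paralogue of Hnf4a that is prominent in gut, fell from 0.87 ± 0.50 CPM (SD, n = 4) to 0.14 ± 0.10 CPM (SD, n = 6), or -2.57 on the log2 scale (adjusted p = 0.0223, edgeR). Of the partners and regulators of the 9 genes that are named here, none passed: the log2 fold change was -0.05 for Nr5a2, -0.25 for Nr1i2 (PXR), 0.26 for Rxra and -0.47 for Nr0b2 (SHP), with edgeR adjusted p from 0.148 to 0.843.

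Genes known to respond to these factors were read list by list, beside 4.11% of all tested genes called higher and 5.82% called lower by edgeR. Over the same 17610 genes, DESeq2 called 1396 higher and 1661 lower, limma-voom 901 and 1105, and limma-voom with quality weights 1621 and 2021. List counts by those tools, here and below, are to be read beside these. Of 20 HNF4α targets, edgeR called 3 higher and none lower (median 0.32). DESeq2 called 7 higher and none lower, limma-voom 3 and none, and quality weights 6 higher and 1 lower. Otc, of the urea cycle, rose by 0.92 (edgeR adjusted p = 0.0359), Slc10a1, the bile acid uptake carrier, by 1.003 (0.0363), and Tat, tyrosine aminotransferase, by 1.25 (0.0367). Cyp8b1, of cholic acid synthesis, stood at 1.74 and did not pass (0.0701). Of 8 C/EBPα targets, edgeR called 3 higher and none lower (median 1.07), while DESeq2 called 4 higher and 1 lower and limma-voom, with or without quality weights, 3 higher and 1 lower. Hamp, which encodes hepcidin, rose by 3.09 ± 0.40 on the log2 scale (SE; adjusted p = 0.0105, edgeR), and Cps1, the first enzyme of the urea cycle, by 1.59 ± 0.45 (0.0462). Tat is also in this list and in that of FOXA targets. Alb, the albumin gene, stood at -0.60 and did not pass (edgeR adjusted p = 0.0524). At an unadjusted p under 0.05 stood 9 of the 20 HNF4α targets and 6 of the 8 C/EBPα targets. The share of all tested genes under that cut was not counted, so these counts show no excess by themselves.

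Genes of bile acid synthesis and FXR targets were taken as separate lists. Of 12 genes of bile acid synthesis, edgeR called 3 higher, beside 4.11% of all genes, and none lower (median 0.74), with 8 under an unadjusted p of 0.05. DESeq2 called 7 higher, limma-voom 3 and quality weights 5, and none of these called any lower. Cyp27a1, of the alternative pathway, rose by 0.62 (edgeR adjusted p = 0.0298), Slc27a5, a bile acid ligase, by 0.88 (0.0318), and Baat, which conjugates bile acids, by 1.10 (0.0382). Of 11 FXR targets tested, edgeR called none higher and 2 lower, beside 5.82% of all genes (median -0.23), and 4 were under an unadjusted p of 0.05. DESeq2 and limma-voom each called 3 lower, quality weights 2, and none of them called any higher. Slc51b, a bile acid exporter subunit, was at 0.19 ± 0.10 CPM among responders (SD, n = 6) and 1.81 ± 1.37 CPM among non-responders (SD, n = 4; log2 fold change -3.15, edgeR adjusted p = 0.0177), and Akr1b7, an aldo-keto reductase, was at 0.90 ± 1.17 and 29.9 ± 27.1 CPM (log2 fold change -5.05, edgeR adjusted p = 0.0211). Kng1, the kininogen gene, stood at -0.58 (0.05002) and Apoc2, an apolipoprotein gene, at -0.61 (0.163), and neither passed. Nr1h4 itself was called higher.

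Of 20 CAR targets, edgeR called 4 higher and 2 lower, beside 4.11% and 5.82% of all genes (median -0.05). With quality weights limma-voom called 5 higher and 5 lower. Abcc3, an efflux pump, had the smallest p, and rose by 1.92 ± 0.26 on the log2 scale (SE; adjusted p = 0.0118, edgeR). Cyp2c29 rose by 2.11 (0.0225), Aldh1a7 by 0.92 (0.0235) and Aldh1a1 by 1.02 (0.0363), and Cyp2a4 fell by 2.45 (0.0160) and Gstm3 by 1.14 (0.0367) on the log2 scale. Cyp2b10, the classic target of CAR, was singled out after its values were seen and was at 1.49 ± 1.37 CPM (SD, n = 6) and 0.47 ± 0.27 CPM (SD, n = 4) and did not pass (edgeR adjusted p = 0.144). The Cyp2, Aldh1a and Gstm genes belong to families of near-identical members, so their counts are uncertain.

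Of 8 FOXA targets tested, edgeR called 2 higher and none lower (median 0.21), and 7 were under an unadjusted p of 0.05. DESeq2 called 3 higher and 2 lower, limma-voom 2 and 3, and quality weights 3 and 3. The genes called higher by edgeR were Tat and Serpina1a, a serine protease inhibitor from a family of near-identical genes (1.01, edgeR adjusted p = 0.04995). Igfbp1, which binds insulin-like growth factors, stood at -3.66 and did not pass (0.0697). Of 6 HNF6 targets none passed by edgeR or limma-voom and 2 were under an unadjusted p of 0.05 (median 0.33), while DESeq2 and limma-voom with quality weights each called 2 higher. Ttr, the transthyretin gene, stood at 0.81 (edgeR adjusted p = 0.0765), and Cyp7a1, the rate-limiting enzyme of bile acid synthesis, at 1.28 (0.103).

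Of 28 list and marker genes that passed with all libraries, 25 missed the threshold without non-responder replicate 2, all but Hamp, Abcc3 and Hnf4aos. Without responder replicates 1 to 6 in turn, 19, 20, 12, 1, 19 and 5 of them missed it. Without non-responder replicates 1, 3 and 4, 7, 3 and 6 missed it. Hamp, Abcc3 and Hnf4aos passed in all 10 such fits.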

How the data were processed

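Bulk RNA was sequenced from mouse livers. Per the labels' protocols, TRIzol was used for extraction and Illumina TruSeq for the libraries. Per the submitters' processing notes, FastQC was run and the build is mm10. Not given in the sources used here are aligner, counter, annotation release and strand setting. The deposited tables hold raw counts per gene and per exon and the authors' RPKM values per library, per the file headers. RPKM was not used in any test.

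The genes and lists were chosen with earlier results of these data known. The response label set the groups, and replicate numbers follow accession order and pair nothing. Responders (6) and non-responders (4) were compared in R 4.3.3 by the robust quasi-likelihood F test of edgeR 4.0.16 (filterByExpr, TMM, Benjamini-Hochberg over all genes tested, threshold 0.05); the SE of a log2 fold change is its size over the root of F. Levels in CPM use TMM scaling over all 11 libraries. First-exon shares were read from the deposited exon counts, per base, where both exons were listed. These and the Foxa shares were tested by two-sided exact permutation in Python 3.11.15, and the Wilson intervals came from scipy 1.17.1. The 21 pairs of libraries within groups differed by at least 4.79 times counting noise, more than sequencing the same library again would give. This check cannot tell whether libraries share a mouse, and pairs across groups were not compared. Named genes are the 9 genes, up to 4 of smallest p in each list plus fixed partners, Afp and Ctnnb1, overlapping genes, and the 3 genes most like each by Pearson r of log2 CPM (prior count 2; average log2 CPM of 1 or more), of which the first is printed. A gene that the rule took is not reported here. Lyve1, Cebpg and Prox1os fall under the same rule. Promoters are RefSeq's (GRCm38.p6), found for all 9 genes but not for the upstream start of Nr1h4. Alternatives were other scalings, other filters, DESeq2 1.42.0, limma-voom (limma 3.58.1), 3 covariates, exon sums and leaving out each library. The steps were tested on simulated data.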

Additional observations from a re-analysis of the deposited data

Results flagged for a closer look

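In 2 of 28 sets of values (each gene's CPM and each share, in responders and in non-responders), 1 library stood apart from the rest of its group by Dixon's test; chance flags about 1 set in 20. Cebpa was at 1116 CPM in responder replicate 1, and its gap to the next responder was 0.80 of the group's range (critical value 0.625). The share of Foxa1 among the Foxa genes was 25.98% in the same library, with a gap of 0.66 of the range. Their cause was not tested.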

How the results depend on the processing

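No paired analysis was possible because the numbers in the sample titles are not shared between groups. The 2 genes called higher became 1 with library size as the only scaling, with no filter and with the 3′ coverage covariate, 0 with the title number or the exon index as covariate, and 0 to 2 with each library left out, and it rose to 3 with DESeq2, which added Onecut1 (adjusted p = 0.0282). Over all genes, 723 higher and 1025 lower became 1396 and 1661 with DESeq2, 1621 and 2021 with limma-voom and quality weights, 0 and 1 with the title number, 0 and 0 with the exon index, and 38 to 836 and 41 to 1158 with each library left out. Both covariates move with the label, and the cause was not tested. For Cebpa the log2 fold change was 0.51 (adjusted p = 0.680, edgeR) with the title number, 0.56 (0.785) with the exon index and 0.91 (0.0845) with 3′ coverage. For Nr1h4 it was 0.40 (0.0517) with library size only, 0.44 (0.0646) with no filter, 0.45 (0.447) with the title number and 0.28 (0.781) with the exon index. Some differences that had not passed changed sign: Hnf4a to 0.0045 with quality weights and 0.044 with the exon index, Foxa3 to 0.073 with the exon index, and Nr1i3 to 0.22 with quality weights, 0.11 with the exon index, 0.21 with 3′ coverage and 0.20 in exons shared with no other gene (added after seeing the data). With each library left out, Nr1i3 ran from -0.25 to 0.21 and Prox1 from -0.082 to 0.27. The Hnf4a and Nr1h4 first-exon shares were tried only with raw reads and with each library left out, and with no covariate. They passed in each of these, with differences of -8.98 to -6.12 and -14.7 to -9.55 points over the left-out libraries. The Foxa1, Foxa2 and Foxa3 shares ran from 4.004 to 7.09, 7.55 to 10.3 and -17.2 to -11.9 points there, and with counts not divided by length Foxa2 was 7.54 points (exact permutation, adjusted p = 0.0524). The median log2 fold change of all genes lay between -0.01 and -0.04 under every scaling. The P2 share rests on 3 to 51 reads a library.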
